A study of Cynoglossus semilaevis with 30 samples.

Results

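Neuropeptide genes of appetite control, 5 in number, were followed here in female tongue sole (Cynoglossus semilaevis), a flatfish, across the brain, pituitary, liver, gonad and muscle. They are pmch and pmchl, which both encode precursors of melanin-concentrating hormone (MCH), agrp, which encodes agouti-related protein, npy, which encodes neuropeptide Y, and gal, which encodes galanin. These 5 genes of 22292 in the table were chosen by gene symbol, gene number or product name, with receptors left out. The table names agrp, npy and gal by symbol, and lists the MCH precursors as LOC103382576 (pro-MCH 2-like) and LOC103389031 (pro-MCH-like), which the RefSeq gene table of assembly Cse_v1.0 calls pmch and pmchl.

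All fish were females aged 1.7 years per the labels, and the size classes differ only in being called large or small. Each library was made from the RNA of 2 fish of 1 size class, and each of the 5 tissues had 3 libraries per class, 30 in all. The sources give 6 fish per size class, so libraries of different tissues share fish. The labels name no strain, treatment or feeding state, and a level is an average over all cells of the tissue sampled. Library totals ran from 6130667 to 10504899 estimated counts.

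Neuron markers summed to 2671 to 4646 CPM in the brains and 657 to 1143 CPM in the pituitaries, and pituitary hormone genes to 125342 to 182637 CPM in the pituitaries and 17.2 to 79.1 CPM in the brains, as the labels of both tissues would have it. Some libraries stood apart. Those of small pituitary, small muscle and large gonad were nearly alike, with a chi-square per gene of 1.69 to 2.51 where counting noise alone gives 1, against 5.41 to 47.8 in the other 7 groups. Whether these nearly alike libraries are separate pools of fish is not known, which bears on all calls in pituitary, muscle and gonad. Large pituitary replicate 2 was high in neuron and glia markers and large brain replicate 3 in gonad genes. The values of both are given beside the results they touch.

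In vertebrates, appetite is set in large part by small groups of hypothalamic neurons that release peptides. AgRP and neuropeptide Y raise food intake in mammals and in several fishes, and AgRP does so by blocking melanocortin receptors that peptides from pro-opiomelanocortin (POMC) activate. MCH was first found in fish as a hormone that pales the skin, and it acts on feeding in mammals. Galanin raises food intake in mammals and goldfish and is made in many brain regions. Fewer cells of a type and less RNA per cell cannot be told apart in such bulk samples.

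In the brain, the MCH precursors, agrp and gal stood lower in every library of large females than in every library of small females, while npy overlapped. The log2 fold changes of these 4 genes ran from -1.54 for gal to -6.74 for agrp. None of these differences passed edgeR's quasi-likelihood test after adjustment over all 16878 brain genes tested, although 4 of the 5 were lower at an unadjusted p under 0.05, as were 2.77% of all genes, beside 3.57% that were higher. Levels are in CPM (counts-per-million, normalised within the tissue), with means ± SD over 3 libraries, and each log2 fold change is that of large over small females, with its SE.

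The pmch gene had 139, 248 and 94.1 CPM in small replicates 1, 2 and 3 and 2.85, 8.94 and 10.1 CPM in the large replicates 1, 2 and 3. The lowest small library was thus far above the highest large one. Means were 160 ± 78.8 and 7.31 ± 3.91 CPM (log2 -4.47 ± 0.51, unadjusted p = 1.98e-05, edgeR adjusted p = 0.111). Its relative pmchl stood at 99.0, 122 and 58.1 CPM in the small and at 0.678, 9.33 and 8.19 CPM in the large libraries. Again the classes did not overlap, and large replicate 1 was the lowest library for both genes. The means of pmchl were 93.1 ± 32.6 and 6.07 ± 4.70 CPM (log2 -3.96 ± 0.65, edgeR adjusted p = 0.347).

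For agrp, the small libraries held 74, 290 and 76 counts and the large libraries 1, 0 and 2. Normalised, these were 8.66, 35.9 and 8.95 against 0.136, 0 and 0.390 CPM, so that agrp was near the limit of detection in every large brain and small replicate 2 stood well above the other small brains. Small brains held 440 counts in all and large brains 3, which is 119 times as many after scaling to depth, with an exact 95% Clopper-Pearson interval of 40.3 to 578 for counting error only. The fitted log2 fold change was -6.74 ± 0.97 (edgeR adjusted p = 0.24). Galanin differed less, at 12.8, 14.6 and 9.89 CPM in the small and 3.66, 5.88 and 3.12 CPM in the large libraries. Its spread within each class was narrow beside the distance between them, with means of 12.4 ± 2.37 and 4.22 ± 1.46 CPM (log2 -1.54 ± 0.30, edgeR adjusted p = 0.435). In contrast, npy had 14.4, 8.65 and 9.30 CPM in the small and 11.5, 7.16 and 20.5 CPM in the large brains. The highest and the lowest npy values were both in large females, and the means of 10.8 ± 3.14 and 13.1 ± 6.80 CPM differed by less than their spread (log2 0.26 ± 0.39, edgeR adjusted p = 0.948).

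**Figure D1:**
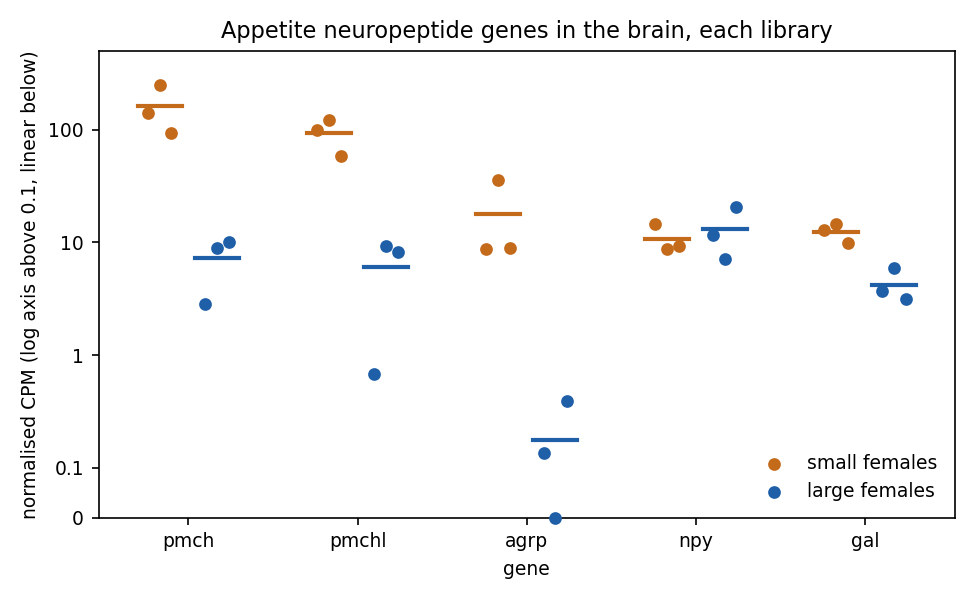
Normalised CPM of the 5 genes in each brain library (vertical axis, log scale above 0.1 and linear below), with small females in orange, large females in blue and bars at the means of 3 libraries. The 3 large brains lie below all 3 small brains for pmch, pmchl, agrp and gal, from 2.85 to 10.1 against 94.1 to 248 CPM for pmch, and overlap with them for npy.

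So 0 of 5 members were called in brain, where 0.0118% of all genes were called, and 4 of 5 were lower in large brains without overlap, as were 6.01% of all genes tested. DESeq2 called 4 of the 5 lower, with adjusted p-values of 1.47e-08 for pmch, 3.50e-08 for agrp, 0.012 for pmchl and 0.0106 for gal, where it called 0.208% of genes lower. limma on log2(FPKM + 1) called 0. Sorted by log2 fold change from the lowest, agrp was the second, pmch the third and pmchl the fourth of 16878 genes, while gal was at place 111 and npy at 13922. By unadjusted p, pmch was at place 3, agrp at 7, pmchl at 12 and gal at 33.

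The pair of MCH genes dominated the set in small brains, whereas npy held a larger share in large ones. FPKM values (fragments-per-kilobase-per-million), which take gene length into account, summed over the 5 genes to 464, 734 and 296 in small and 28.1, 50.5 and 56.3 in large replicates 1, 2 and 3. Of this sum, pmch and pmchl together made up 88.6%, 87.5% and 86.2% in the small libraries and 18.8%, 63.3% and 45.8% in the large. The share of npy was 5.06%, 2.01% and 5.06% in small and 64.7%, 22.4% and 47.7% in large brains. Shares of a sum move against each other by construction, and the level of npy itself overlapped between the classes.

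Among all genes of the small brain ordered by mean FPKM, pmch was at place 308 and pmchl at place 342. In the large brain they were at places 6970 and 5680. The order of the 5 genes in small brains was pmch (229 ± 120 FPKM), pmchl (207 ± 77.9), agrp (28.3 ± 25.6), npy (17.7 ± 4.96) and gal (15.7 ± 3.41). Libraries of pmch and pmchl overlapped, as did those of agrp, npy and gal, while the step from pmchl to agrp exceeded the spread. Large brains had npy (18.8 ± 7.77 FPKM) first, then pmchl (11.9 ± 9.45), pmch (9.14 ± 4.59), gal (4.95 ± 2.07) and agrp (0.227 ± 0.241). Only the step from gal to agrp exceeded the spread between neighbours in that order.

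The balance between the MCH genes was close to even in the brain. The ratio of pmch to pmchl FPKM was 0.901, 1.29 and 1.04 in small and 2.69, 0.614 and 0.792 in large replicates 1, 2 and 3. The value of 2.69 belongs to large replicate 1, in which pmchl had only 5 counts. The pituitary had a different balance, with ratios of 0.0795, 0.371 and 0.142 in small and 0.188, 0.385 and 0.196 in large females, so that pmchl exceeded pmch in all 6 libraries. There, pmch rested on 3 to 10 counts per library and pmchl on 5 to 34.

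**Figure D2:**
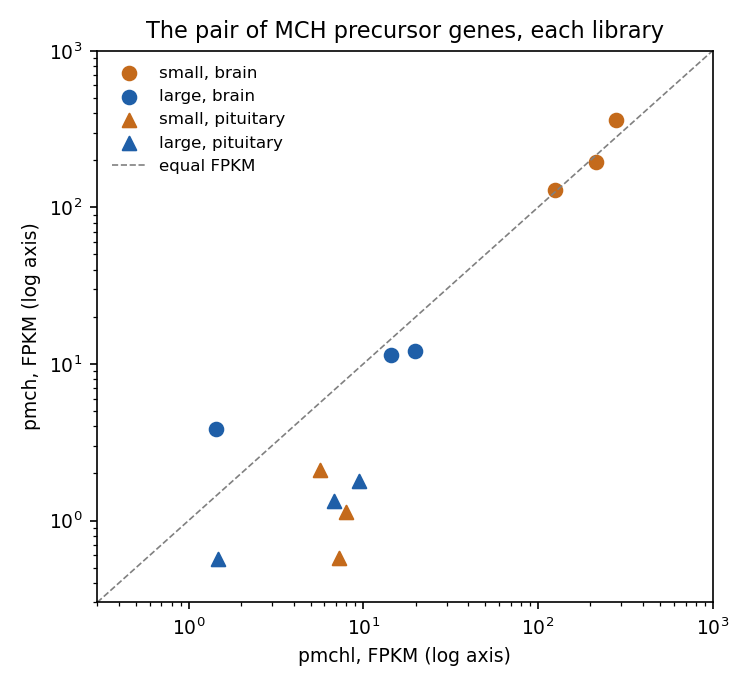
FPKM of pmch (vertical) against pmchl (horizontal) in each brain and pituitary library, both on log axes, with a dashed line where the values are equal. Brain libraries lie near the line at high values in small and low values in large females, and all 6 pituitary libraries lie below it, at ratios of 0.0795 to 0.385.

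Across the 6 brain libraries the 4 lower genes varied together. Pearson's r of log2 normalised CPM was 0.98 between pmch and pmchl, 0.96 between pmch and agrp and 0.94 between pmch and gal, with 0.89 to 0.91 for the other pairs of these 4 genes, and it was between -0.42 and -0.15 for npy with each of the others. These are descriptions over 6 libraries that share the split into size classes. The genes most like each member, by the same measure among 13554 brain genes with a mean of at least 5 CPM, included a POMC gene. LOC103389827 (POMC-like) was the closest to pmchl (r = 0.989) and among the 5 closest to pmch (r = 0.987), as was crhbp, which encodes a protein that binds corticotropin-releasing factor (r = 0.988 with pmch). The other genes closest to pmch were stom, txnip and tbc1d15, and the remaining ones for pmchl were tbc1d15, cxcr4 and pmch itself. For agrp they were abtb2 (r = 0.999), cebpd, crebbpa, rnf215 and ncoa4, and the small mean of these 5 genes was only 1.07 to 2.05 times the large mean.

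The closest genes to gal were LOC103396034 (similar to TAL1), LOC103389243 (a sodium pump subunit), LOC103394268 (similar to an antifreeze protein), LOC103391523 and rgs19. For npy they were knop1 (r = 0.995), LOC103396929 (Musashi-like), plekhg4b, uhrf1 and max (r = 0.988). The closest of 13554 genes over 6 libraries have a high r by selection, also for npy, which overlapped between the classes. Such values are thus no sign of shared control.

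Of the other appetite peptides, 38 were measured and 28 tested in brain, and 0 were called. Without adjustment, 5 were lower and 0 higher at p under 0.05, where 2.77% of all genes were lower and 3.57% higher. DESeq2 called 2 lower, where it called 44 of 21126 genes lower, and limma called 0. The median log2 fold change of the 28 was -0.49, with 22 below 0, beside a median of -0.0044 over all genes, of which 50.7% were below 0. Both genes that DESeq2 called encode POMC, the precursor of the melanocortins that AgRP opposes. LOC103389827 stood at 25.4, 30.0 and 24.7 CPM in the small and 0.814, 3.83 and 3.32 CPM in the large brains (log2 -3.34 ± 0.42, edgeR adjusted p = 0.169, DESeq2 adjusted p = 4.11e-12). LOC103380837 stood at 4.45, 6.06 and 3.53 against 0.271, 0.383 and 0.585 CPM (log2 -3.50 ± 0.48, edgeR adjusted p = 0.225, DESeq2 adjusted p = 0.000539). Precursors of peptides with opposite roles in feeding were thus both lower in large brains without overlap. The third POMC gene, LOC103393769, had 8.07, 11.7 and 5.06 against 5.42, 5.24 and 0.780 CPM, which overlapped.

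The next smallest p-values among these peptides belonged to pdyn, the dynorphin precursor, and spx, which encodes spexin, a peptide that lowers food intake in goldfish. Their levels were 58.8 ± 16.1 and 32.8 ± 6.34 CPM for pdyn (edgeR adjusted p = 0.582) and 2.91 ± 0.389 and 0.575 ± 0.545 CPM for spx (edgeR adjusted p = 0.628), in small and large brains. A peptide YY gene of the npy family, LOC103393602, had 24.4 ± 7.99 and 17.1 ± 12.2 CPM.

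**Figure D3:**
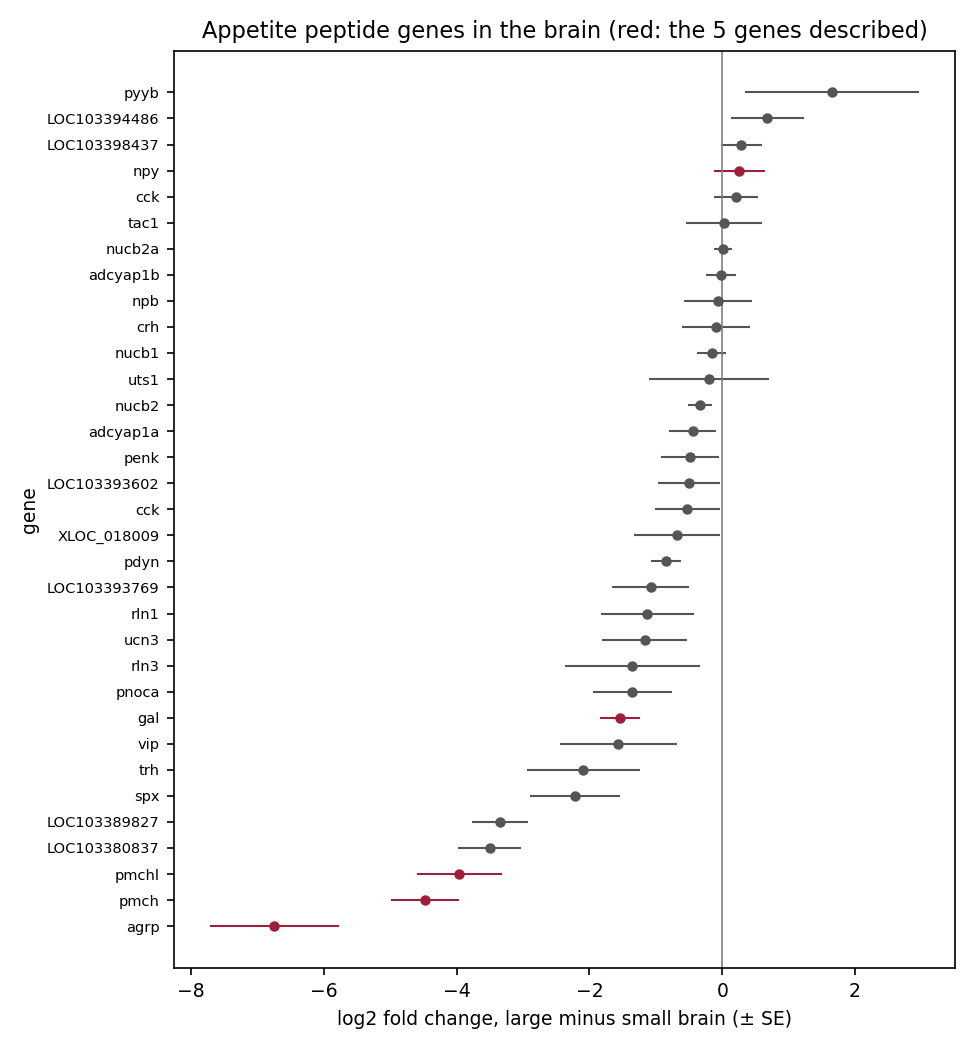
Log2 fold change between large and small brains (horizontal axis, points with SE bars) for the 5 genes in red and the 28 other tested appetite peptide genes in grey, sorted by fold. At the low end lie agrp (-6.74), pmch (-4.47) and pmchl (-3.96), followed by both POMC genes (-3.50 and -3.34), and npy (0.26) lies above 0.

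Receptors for these peptides had no call in the brain. Of 16 receptor genes measured, 8 passed the filter on low counts in brain, 0 were called by edgeR, DESeq2 or limma, and 0 had an unadjusted p under 0.05. Their median log2 fold change was 0.12, with 3 of 8 below 0. The galanin receptor gene galr1 stood at 11.3 ± 2.99 CPM in the small and 15.7 ± 3.24 CPM in the large brains (edgeR adjusted p = 0.837), and the melanocortin 4 receptor-like LOC103377490, the type of receptor on which AgRP acts, at 1.88 ± 0.711 and 1.16 ± 0.223 CPM (edgeR adjusted p = 0.892). The MCH receptor gene mchr1 had 17 counts over the small and 24 over the large brains. A neuropeptide Y receptor gene, npy7r, had 3.08 ± 1.04 and 2.12 ± 0.994 CPM (edgeR adjusted p = 0.912), and the galanin receptor-like LOC103388657 had 5.07 ± 0.854 and 3.70 ± 2.03 CPM (edgeR adjusted p = 0.923).

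For the machinery that cuts and stores peptides, no difference was detected. Of 14 processing and granule genes, all tested, 0 were called by any of the 3 tools and 0 had an unadjusted p under 0.05, with a median of -0.13. The granule genes vgf (16.5 ± 4.25 and 9.22 ± 4.33 CPM) and scg2 (160 ± 30.7 and 97.4 ± 52.4 CPM) had the smallest p-values (edgeR adjusted p = 0.801 and 0.83). Of 16 tested genes through which hypothalamic neurons sense leptin, insulin and other signals, 0 were called by any of the 3 tools. At an unadjusted p under 0.05, 1 was higher and 0 lower, beside 3.57% and 2.77% of all genes. That gene was nr3c1, the glucocorticoid receptor, at 21.4 ± 4.01 and 31.7 ± 1.58 CPM (log2 0.57 ± 0.17, edgeR adjusted p = 0.628). The cytokine signalling inhibitor socs3 had 14.5 ± 6.43 and 8.17 ± 2.55 CPM (edgeR adjusted p = 0.807).

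Markers of brain regions were examined beside these values, because the peptides are made in a small part of the brain. Transcription factors of the hypothalamus summed to 185, 195 and 186 CPM in the small and 183, 176 and 136 CPM in the large replicates 1, 2 and 3. Of their 15 tested genes 0 were called by edgeR, DESeq2 or limma, and the median log2 fold change was -0.24. At an unadjusted p under 0.05, 1 was higher and 2 lower, beside 3.57% and 2.77% of all genes. Without overlap, 1 was higher and 1 lower, beside 6.07% and 6.01% of all genes. The otp genes, which specify peptide neurons of the hypothalamus, were among the lowest, at 9.68 ± 3.08 and 4.75 ± 1.78 CPM for otp (edgeR adjusted p = 0.697) and 6.64 ± 1.86 and 3.63 ± 0.149 CPM for the otp-like LOC103397626 (edgeR adjusted p = 0.69). Both fold changes, of -1.02 and -0.87, were smaller than those of pmch, pmchl, agrp and gal.

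A list of other peptide genes of the hypothalamus also holds th, the gene of the enzyme that starts dopamine synthesis. The list had a median below 0 as well, at -0.37 for 12 tested genes, with 0 called by any of the 3 tools. At an unadjusted p under 0.05, 0 were higher and 2 lower, beside 3.57% and 2.77% of all genes. The lower ones were th, with a log2 fold change of -1.21 ± 0.46, and trh, the thyrotropin-releasing hormone gene, with one of -2.09 ± 0.85 (edgeR adjusted p = 0.74 and 0.759). The trh gene is also among the other appetite peptides and so was counted in both lists. Both overlapped between the classes. Small replicate 2, the highest for pmch, pmchl, agrp and gal, was also the highest for trh, at 88.8 CPM. Over the whole list, by contrast, small replicate 2 had the lowest sum of its class, 691 CPM. Small replicate 1 reached 1703 CPM, while small replicate 3 reached 811 CPM. Sums of the large brains, from 563 to 1551 CPM, overlapped with these.

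Telencephalon markers stood on the other side of 0. They summed to 62.5, 61.9 and 81.0 CPM in the small and 219, 121 and 76.1 CPM in the large brains, with a median log2 fold change of 0.99 and 11 of 12 tested genes above 0. Of these 12, 6 were higher at an unadjusted p under 0.05, as were 3.57% of all genes, and 4 were higher without overlap, as were 6.07% of all genes. Among the 12, 0 passed adjustment with edgeR, DESeq2 or limma. The forebrain factor gene dlx2 had 2.23 ± 0.547 CPM in the small and 6.41 ± 1.65 CPM in the large brains (edgeR adjusted p = 0.49). Large replicate 1, the lowest for pmch and pmchl, was the highest by this sum.

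Midbrain and thalamus markers summed to 239, 246 and 216 CPM in the small and 214, 184 and 144 CPM in the large brains, with a median of -0.39 and 15 of 16 below 0. Of these 16, 6 were lower in large brains without overlap, against the 6.01% of all genes. Cerebellum and hindbrain markers were highest in replicate 3 of both classes, at 2285 and 2232 CPM, against 963 to 1116 CPM in the other 4 brains. Neuron markers had a median of -0.01 over 16 genes. Glia and myelin markers had one of 0.15 and summed to 17191, 14823 and 17467 CPM in the small and 22537, 20237 and 32501 CPM in the large brains, higher in every large library. Within these 4 lists 0 genes were called by edgeR or limma. At an unadjusted p under 0.05, 3 glia genes were higher and 3 genes of the midbrain and cerebellum lists lower, beside 3.57% and 2.77% of all genes. DESeq2 called 2 glia genes higher, where it called 59 of 21126 genes higher. How far the makeup of the dissected brains moved the 5 genes was not tested.

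Genes of other tissues also differed between the brain libraries. Gonad genes summed to 17.1, 6.80 and 6.48 CPM in the small and 23.3, 29.3 and 150 CPM in the large brains, so that every large brain exceeded every small one. All 6 tested gonad genes were above 0, with a median log2 fold change of 2.76. At an unadjusted p under 0.05, 5 were higher, as were 3.57% of all genes, while 0 were called by edgeR or limma. DESeq2 called 2 of them higher, where it called 59 of 21126 genes higher. Without large replicate 3, the highest by this sum, the log2 fold changes of the members were -4.76 for pmch, -4.20 for pmchl, -7.78 for agrp, -1.38 for gal and -0.21 for npy. Blood and liver plasma protein genes summed to 8073, 5421 and 6055 CPM in the small and 7949, 3317 and 7359 CPM in the large brains, which overlapped. Their median log2 fold change was -0.91, with 10 of 13 below 0. At an unadjusted p under 0.05, 5 were lower, as were 2.77% of all genes, while 0 were called by edgeR or limma. DESeq2 called 1 of the list lower, where it called 44 of 21126 genes lower. The part of gonad, blood or plasma RNA in the brain results was not tested.

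**Figure D4:**
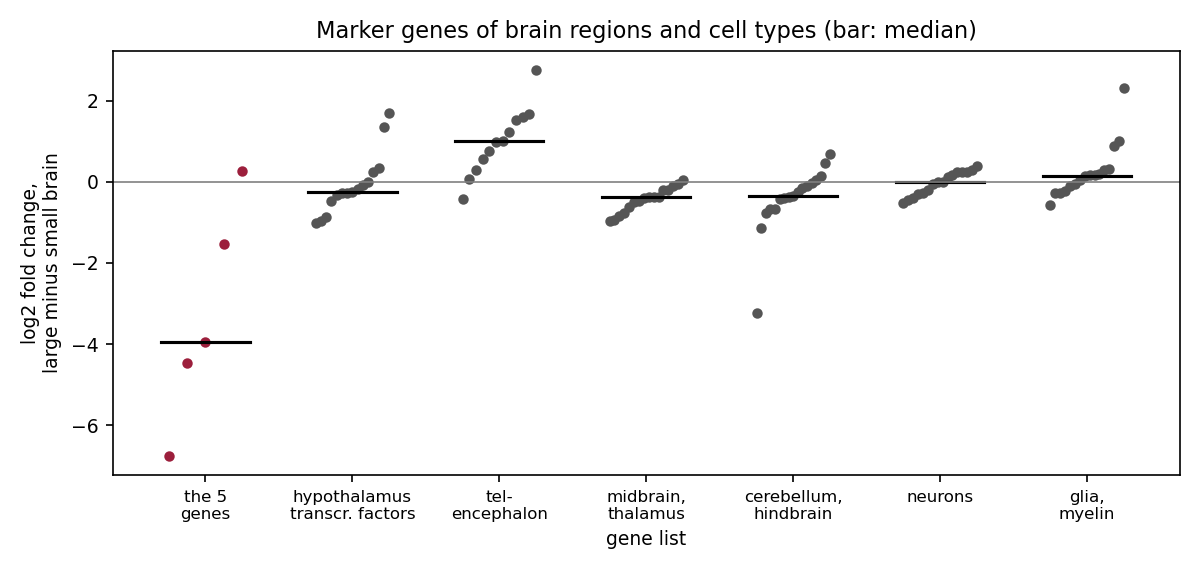
Log2 fold change between large and small brains (vertical axis) of each tested gene in 6 marker lists (grey) and of the 5 genes (red), with bars at the medians. Medians were -0.24 for hypothalamus transcription factors, 0.99 for telencephalon, -0.39 for midbrain and thalamus, -0.35 for cerebellum and hindbrain, -0.01 for neurons and 0.15 for glia, while the 5 genes ran from -6.74 (agrp) to 0.26 (npy).

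Pituitary hormone genes were set beside agrp in the brain, since agrp was far higher in the pituitary. Growth hormone, prolactin, somatolactin, lhb, cga and tshba, which are made in the pituitary, summed to 16.6, 31.0 and 18.4 CPM in the small and 14.4, 15.6 and 11.7 CPM in the large brains, lower in every large brain. The highest ratio in any pituitary library was 4.15 CPM of agrp per 1000 CPM of these hormone genes. At that ratio the small brains would have held 0.0690, 0.129 and 0.0763 CPM of agrp, against the 8.66, 35.9 and 8.95 CPM measured. In large brains the same ratio gives 0.0597, 0.0647 and 0.0486 CPM, against 0.136, 0 and 0.390 CPM. These figures take the makeup of whole pituitaries, and the part of pituitary RNA in the brain values was not tested. For the POMC gene LOC103389827, also abundant in the pituitary, the highest pituitary ratio gives 1.92, 3.58 and 2.12 CPM in the small and 1.66, 1.80 and 1.35 CPM in the large brains, below the 24.7 to 30.0 CPM measured in small brains and near the 0.814 to 3.83 CPM of large ones. LOC103393769 would have 8.37, 15.6 and 9.26 against 7.24, 7.86 and 5.90 CPM at its own highest ratio, above what was measured in all 6.

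In RefSeq the agrp gene overlaps LOC103378813, a chymotrypsin-like digestive enzyme gene, and whether the counting used strand is not stated, so that reads in the overlap are uncertain. None of the other 4 genes overlaps another gene in that table. In the brain the chymotrypsin-like gene had 18, 63 and 404 counts in small and 18, 37 and 23 counts in large replicates 1, 2 and 3. These came to 485 counts over the small and 78 over the large brains, beside 440 and 3 of agrp. The part of the overlapping gene in the agrp counts of the brain was not tested.

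In the pituitary, agrp was among the most abundant genes and was lower in large females. It stood at 437, 429 and 419 CPM in the small and 296, 193 and 196 CPM in the large replicates 1, 2 and 3, with no overlap. The means of 428 ± 9.18 and 228 ± 58.4 CPM gave a log2 fold change of -0.91 ± 0.16 (edgeR adjusted p = 0.0157). By mean FPKM, agrp was at place 121 of all genes in small (623 ± 8.26) and at place 184 in large pituitaries (344 ± 96.4).

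Thus 1 of 2 members tested in the pituitary fell, where 5.82% of all genes were called, 3.4% were called lower and 15.3% were lower without overlap. The call depends on the small libraries, with a chi-square per gene of 1.69 to 1.85 between them, against 5.41 to 18.8 between the large ones. It was lost without small replicate 1, 2 or 3 (edgeR adjusted p = 0.0971, 0.0929 and 0.0917) and in a fit of all 30 libraries (0.637). Calls over all genes fell as well, from 912 of 15668 to 129, 155 and 148 without small replicate 1, 2 or 3. The fit of all libraries called 326 of 19511 genes. DESeq2 gave agrp an adjusted p of 5.89e-07 and called 1190 of 20443 genes. Summing the small libraries to 1, a choice made after seeing the data, leaves 1 library in that class. For that fit only the fold change is given. The log2 fold change of agrp was -0.90, -0.91 and -0.92 without small replicate 1, 2 or 3. It was -0.90 in the fit of all libraries and -0.91 with the small libraries summed. As the small libraries were nearly alike, leaving out or summing them could hardly move it. Without large replicate 1, 2 or 3 it was -1.14, -0.80 and -0.81. The overlapping chymotrypsin-like gene had 204 counts over the small and 104 over the large pituitaries, against 9019 and 5262 of agrp.

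Blood and liver plasma protein genes were lower in the same comparison. Of 13 tested in the pituitary, 6 fell and 0 rose, 10 were lower without overlap, and the median log2 fold change was -1.66. Among all pituitary genes, 3.4% were called lower and 15.3% were lower without overlap. Those that fell included serpinc1, the antithrombin gene, from 74.0 ± 6.04 to 21.7 ± 3.68 CPM (edgeR adjusted p = 0.000805), and hpxb, a hemopexin gene, from 37.3 ± 3.08 to 6.40 ± 2.66 CPM (edgeR adjusted p = 0.00199). DESeq2 and limma each called 8 of the list lower, where they called 657 of 20443 and 428 of 15135 genes lower. Their sum was 935, 991 and 942 CPM in the small and 569, 1052 and 634 CPM in the large pituitaries, which overlapped. In large replicate 2, tfa, a transferrin gene, stood at 498 CPM and apoa1, an apolipoprotein gene, at 159 CPM. Of the 6 calls, those of ambp, hbae5 and LOC103382312 were lost without any 1 small library, and that of ambp also without large replicate 1 or 3. Calls over all genes fell from 912 to 129, 155 and 148 without small replicate 1, 2 or 3. The part of blood or plasma RNA in the agrp difference was not tested.

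The other members were rare in the pituitary. For pmchl, 3.56, 2.75 and 3.83 CPM were found in small and 4.34, 0.697 and 3.26 CPM in the large females (log2 -0.28 ± 0.53, edgeR adjusted p = 0.802). The low value came from large replicate 2, in which neuron markers summed to 1143 CPM, against 657 to 698 CPM in the other 5 pituitaries, and glia markers to 3691 CPM, against 1114 to 1894 CPM. Cerebellum and hindbrain markers summed to 536 CPM in it, against 14.8 to 35.6 CPM. Other hypothalamic peptide genes summed to 42.8 CPM, against 5.74 to 13.2 CPM. The part of brain RNA in this library was not tested. Galanin had 7 counts in that same library, 1 in small replicate 2 and 0 in the other 4, and npy had 0 in all 6. The agouti-signaling protein-like gene LOC103377057, of the same family as agrp, averaged 115 ± 6.44 and 96.3 ± 1.36 CPM in the small and large pituitaries and 0.195 and 0.401 CPM in the brains.

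Of the receptors, 2 of 16 were tested in the pituitary and 0 called by edgeR or DESeq2, whereas both were higher in large females at an unadjusted p under 0.05, as were 11.6% of all genes, and limma called 1 of them. These were the galanin receptor genes LOC103388657, at 25.7 ± 2.35 and 37.2 ± 6.19 CPM (edgeR adjusted p = 0.0716), and galr1, at 17.9 ± 1.05 and 24.4 ± 2.21 CPM (edgeR adjusted p = 0.0777). Of 15 tested energy sensing genes in the pituitary, 0 rose and 2 fell, namely socs3, from 24.1 ± 1.59 to 9.01 ± 1.56 CPM (edgeR adjusted p = 0.00322), and irs2, an insulin receptor substrate, from 55.0 ± 1.13 to 30.0 ± 6.17 CPM (edgeR adjusted p = 0.0142). Among all pituitary genes tested, 5.82% were called and 3.4% were called lower. Without any 1 small pituitary library irs2 was no longer called, at an edgeR adjusted p of 0.0797 to 0.0895, whereas socs3 was still called, at 0.0318 to 0.0389. Calls over all genes fell from 912 to 129, 155 and 148 without small replicate 1, 2 or 3. Summing the 3 small libraries to 1 leaves 1 library in that class, so only fold changes are given for that fit. In it and in the 3 fits without a small library, log2 fold changes stayed between -0.89 and -0.86 for irs2. Those of socs3 stayed between -1.46 and -1.37. Without large replicate 1, 2 or 3 they were -0.89, -0.72 and -1.02 for irs2 and -1.57, -1.39 and -1.32 for socs3. The other appetite peptides had 17 tested and 0 called by edgeR. At an unadjusted p under 0.05, 3 were higher and 3 lower, where 11.6% of all genes were higher and 11.2% lower. DESeq2 called 2 higher and 2 lower, where it called 533 of 20443 genes higher and 657 lower.

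Between tissues, npy was found in the brain only, within the depth of these libraries. It had 518 counts over the 6 brains and 0 in all 24 other libraries, which made the brain at least 169-fold higher than the pituitary, 203-fold higher than the liver, 226-fold higher than the gonad and 195-fold higher than muscle (3 counts over the group as the floor). Galanin had 400 counts in the brains, 8 in the pituitaries, 4 in the gonads and 0 in liver and muscle, at least 156-fold and 151-fold below the brain. For pmchl, 2449 counts in the brains stood against 136 in the pituitaries, 1 in the gonads and 0 in liver and muscle, at least 958-fold and 923-fold below the brain.

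By contrast, agrp was higher in the pituitary than in the brain, with log2 -7.57 ± 0.69 for brain minus pituitary (edgeR adjusted p = 8.19e-09). This fold averages the size classes, which were far apart in brain. Mean FPKM in brain and pituitary was 28.3 and 623 in small females and 0.227 and 344 in large females. The agrp gene had 0 counts in all 6 gonads, at least 194-fold below the brain, and 1 count in muscle. That bound rests on small females, which held 440 of the 443 agrp counts in brain. In large females agrp had 3 counts over the brains, 0 over the gonads and 134 over the livers, 118 of these in 1 liver library. The order of mean FPKM for pmch was brain, gonad, muscle, pituitary and then liver, where it had 4 counts. Brain exceeded gonad (log2 0.90 ± 0.30, edgeR adjusted p = 0.00794), and muscle and pituitary overlapped. In large females alone, pmch was higher in the gonad, at 25.9 ± 2.51 FPKM, than in the brain, at 9.14 ± 4.59 FPKM, with no overlap of the 3 libraries. Of the 20 contrasts of the 5 genes between brain and another tissue, 18 passed edgeR's test, in which 60.2% of all genes were called against pituitary, 69.2% against liver, 87.2% against gonad and 74.8% against muscle. The exceptions were agrp against liver (edgeR adjusted p = 0.395) and against muscle (0.161).

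**Figure D5:**
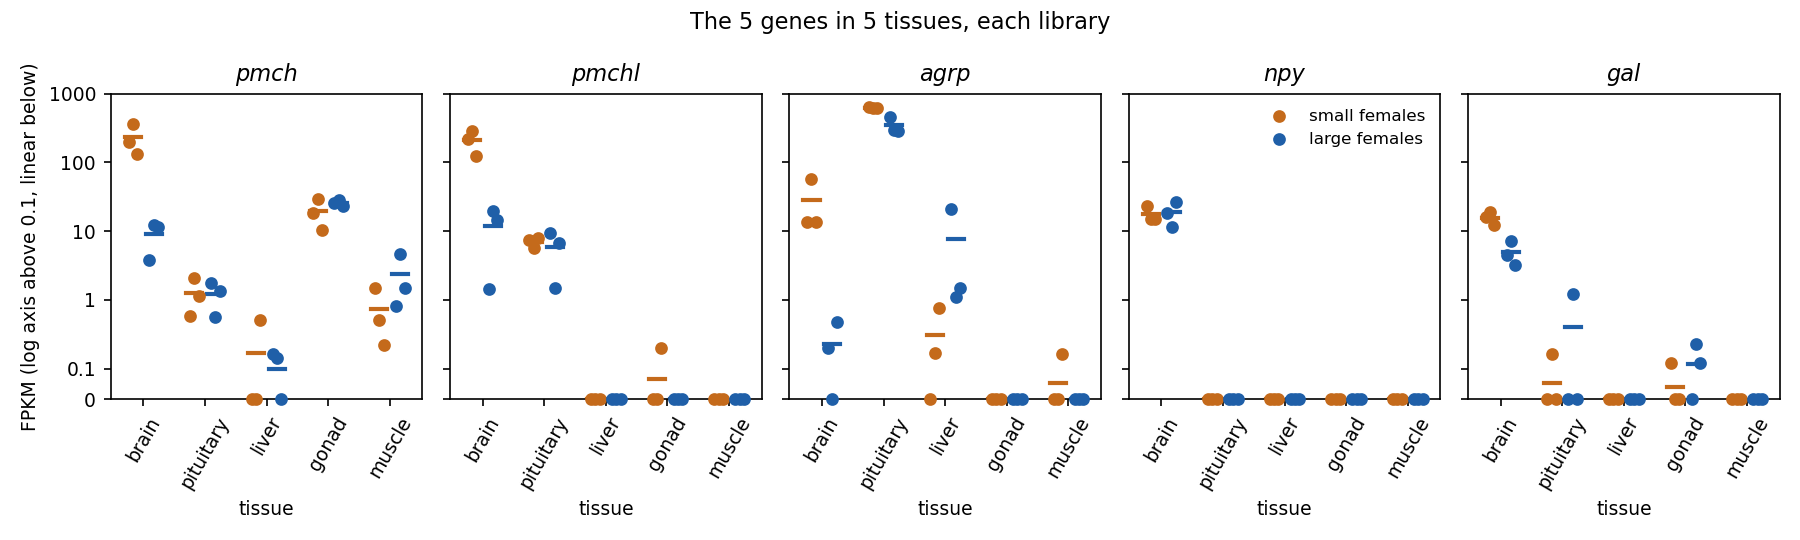
FPKM of each gene in all 30 libraries (vertical axis, log scale above 0.1 and linear below), by tissue, with small females in orange, large females in blue and bars at the means of 3 libraries. Brain libraries hold the highest values of pmch, pmchl, npy and gal, the pituitary the highest of agrp (287 to 631 FPKM), and the gonad holds pmch at 10.4 to 29.0 FPKM.

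The difference between size classes was itself compared between tissues in a fit of all 30 libraries. By an F test over the 5 tissues, it was not the same in all of them for pmch (edgeR adjusted p = 3.36e-05) and agrp (0.00144), as for 25.9% of all genes. The test does not say which tissue differs. It takes libraries of different tissues as independent, although they share fish. For pmchl the adjusted p was 0.0627. It was 0.035, 0.0494 and 0.0681 without large brain replicate 1, 2 or 3, and 0.109, 0.128 and 0.0581 without small brain replicate 1, 2 or 3. With median-of-ratios scaling, no count filter and the replicate block it was 0.0603, 0.0601 and 0.0854. In the main fit the adjusted p was 0.289 for gal and 1 for npy, which had no counts outside the brain.

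In the liver, no member had enough counts for the test, in which 1.31% of genes were called. Most counts belonged to agrp, at 0, 1 and 4 counts in small and 118, 7 and 9 counts in large replicates 1, 2 and 3. All 3 large livers exceeded the small ones in agrp, as they did for 13.1% of the liver genes tested, but 118 of 134 counts in large livers came from 1 library, and the ratio of 42.5 after scaling to depth rests on it. Without that library, a choice made after seeing the data, the ratio was 6.66, with an exact Clopper-Pearson 95% interval of 2.33 to 23.2 for counting error only. The overlapping chymotrypsin-like gene, an enzyme of the pancreas, which lies dispersed around the liver in many fishes, had 48889, 86355 and 136084 counts in the small and 283685, 160266 and 324691 counts in the large livers. It too was higher in every large liver, and blood and liver plasma protein genes had 14 of 14 tested above 0 in the liver, with 0 called. The agrp counts were 0%, 0.00116% and 0.00294% of its counts in small livers and 0.0416%, 0.00437% and 0.00277% in large ones. Large replicate 1 thus stood apart from the other 5 livers by this share as well, and the part of the overlapping gene in these counts was not tested.

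In the gonad, pmch had 12.6, 20.1 and 7.24 CPM in the small and 15.7, 16.7 and 14.8 CPM in the large females. The small values enclosed the large ones, and the means of 13.3 ± 6.48 and 15.7 ± 0.964 CPM did not pass (log2 0.25 ± 0.30, edgeR adjusted p = 0.567), where 24.5% of genes were called. It was the only member with more than 4 counts there. The gene next to pmch in RefSeq, parpbp, which encodes a DNA repair protein, had 655, 171 and 720 counts in small and 589, 751 and 746 counts in large gonads, and 0 to 9 counts in the brains. Expressed as a share of parpbp, pmch had 18.5%, 86.0% and 9.58% in small and 26.5%, 25.7% and 23.1% in large gonads. These shares were close together in the large gonads, which were also nearly alike as libraries, and spread widely in the small ones. The part of reads from the neighbouring gene was not tested.

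In muscle, pmch had 7, 3 and 1 counts in small and 5, 31 and 8 counts in large females, too few for the test, in which 23.5% of genes were called. Gonad genes summed to 199 to 214 CPM in the small and 426 to 860 CPM in the large libraries, with 9 of 10 tested called higher, and parpbp had 23 counts over the small and 78 over the large libraries, beside 11 and 44 of pmch. Whether gonad RNA in these libraries carried the pmch counts was not tested. The other 4 members had 1 count in all 6 muscle libraries.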

How the data were processed

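RNA of 5 tissues of large and small female tongue sole was sequenced, with RNA of 2 fish pooled per library and 3 libraries per group, per the labels. The deposited table holds FPKM values, scaled by the authors to gene length and library size per the file headers, and estimated counts per gene, of which 2.0% were not whole. The submitters' processing notes name edgeR, and no aligner, quantifier, genome build or strand setting is given in the sources used here. Estimated counts were rounded. Of 20373 gene numbers, 19502 matched the RefSeq gene table (Cse_v1.0), which was used for names, overlaps and neighbours, and no sequence of the members was at hand.

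Size classes were compared within each tissue on its 6 libraries with the quasi-likelihood F test of edgeR 4.0.16 (R 4.3.3), after filterByExpr and TMM scaling. Tests were two-sided, adjusted by Benjamini-Hochberg over all genes tested, at a threshold of 0.05. The SE is the log2 fold change over the square root of F. Contrasts between tissues used all 30 libraries, taken as independent although the tissues share fish. The p-values measure the spread between libraries. Whether the nearly alike libraries of small pituitary, small muscle and large gonad are separate pools of fish is not known. In pituitary, muscle and gonad the p-values may thus rest on less than the spread between pools. No exact permutation test of 3 against 3 can go below 0.1, so none is given. Bounds on folds set a tissue at 0 counts to 3 counts over its 6 libraries. Percentages of genes called by DESeq2 are over the genes with a p-value.

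The members and all gene lists were chosen with earlier results of these data known. Named genes were the members, up to 4 genes per list with the smallest p in brain, or the called ones, and the 5 genes most correlated with each member over the 6 brain libraries (log2 of CPM + 0.5). The hormone, chymotrypsin-like and parpbp comparisons, LOC103377057, LOC103393602, mchr1, LOC103393769, the blood genes and the pituitary genes socs3 and irs2 were added after values were seen. Alternatives were DESeq2 1.42.0, limma 3.58.1 on log2(FPKM + 1), log2(FPKM + 0.1) and unfiltered FPKM (otherwise at least 1 FPKM in at least 3 libraries), median-of-ratios scaling, no count filter, 1 fit of all libraries, a replicate block, leaving out each library, and the sum of the small pituitary libraries. Contrasts between tissues were refitted with the scaling, filter and block alternatives and without each brain library. Tables and figures used Python 3.11.15, pandas 2.3.3, numpy 2.4.6, scipy 1.17.1 and matplotlib 3.10.9.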

Additional observations from a re-analysis of the deposited data

Results flagged for a closer look

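The difference between large and small females was not the same in all tissues for 2 of the 5 genes, by an F test of the difference itself in a fit of all 30 libraries. The same test called 25.9% of all 19511 genes. For pmch the edgeR adjusted p was 3.36e-05. Its log2 fold change in that fit was -4.45 in brain, where all 3 large libraries were lower, and 0.23 in gonad, where the classes overlapped. At few counts, it was 1.95 in muscle, 0.10 in pituitary and 0.55 in liver. For agrp the edgeR adjusted p was 0.00144. Its log2 fold change in that fit was -6.67 in brain and -0.90 in pituitary, lower in all 3 large libraries of both tissues, and 5.53 in liver. Its counts were higher in all 3 large livers (134 against 5), but 118 of these 134 came from large liver replicate 1. The gene that agrp overlaps was abundant in liver, and its part in the agrp counts was not tested. The F test was not repeated without that liver library.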

How the results depend on the processing

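Of the 5 genes in brain, 0 were called by edgeR, where 2 of 16878 genes were called. The count was 4 by DESeq2, where 103 of 21126 genes were called. It was 1 (pmch) with no filter on low counts, where 3 of 21141 genes were called. In 1 fit of all 30 libraries it was 3 (pmch, pmchl and agrp), where 55 of 19511 genes were called. With the replicate block it was 2 (pmch and agrp), where 10 of 16878 genes were called. The count was 0 with median-of-ratios scaling, with limma and without each library in turn, where 0 to 3 genes were called. Without single brain libraries, log2 fold changes ran from -4.76 to -4.02 for pmch, -4.51 to -3.41 for pmchl, -7.78 to -5.72 for agrp and -1.86 to -1.38 for gal, so that all 4 directions held. Their edgeR adjusted p-values ran from 0.0889 to 0.366 for pmch, 0.106 to 0.999 for pmchl, 0.182 to 0.46 for agrp and 0.299 to 0.999 for gal. Signs turned for npy in brain without large replicate 3 (range -0.21 to 0.56 without single libraries), pmchl in pituitary without large replicate 2 (-0.74 to 0.17) and pmch in gonad without small replicate 3 (-0.049 to 0.66). In pituitary the count of 1 was 0 to 1 without single libraries, where 129 to 2386 genes were called. It was 0 in 1 fit of all libraries, where 326 of 19511 genes were called. In liver the count of 0 was 1 (agrp) with limma at a pseudocount of 0.1, where 841 of 9924 genes were called. It was also 1 with no filter, where 627 of 18831 genes were called. The same held in 1 fit of all libraries, where 2473 of 19511 genes were called. The cause of these changes was not tested. On the FPKM scale the median of all brain genes moved by -0.14.

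Whether replicate numbers pair the samples is not known. The correlation of same-numbered deviations was -0.03, 0.25 and 0.18 for replicates 1, 2 and 3 in brain. It lay between -0.045 and 0.025 in pituitary, gonad and muscle, and was -0.087, 0.081 and 0.13 in liver. Counts of 18 brain contrasts and 2 differences between tissues stayed within 1.5 times with median-of-ratios scaling, no count filter, the replicate block and without each brain library, the alternatives run for them. Depth limits agrp in large brains, pmch in pituitary, liver and muscle, and gal outside the brain, all at few counts.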
